A study of Mus musculus with 12 samples.

Results

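Expression of 10 circadian clock genes was examined in primary smooth muscle cells grown from mouse vessels. The genes were selected by their symbols in the deposited table, which held 55487 genes, as the clock activator Arntl, the repressors Per1, Per2, Per3 and Cry1, the REV-ERB receptor genes Nr1d1 and Nr1d2, and the D-box factors Dbp, Tef and Nfil3. The list was chosen with the values of all 12 libraries in view, so the levels and changes below describe these genes and the counts of members that passed a test support nothing about the clock as a group. All 10 members passed the filter on low values, against 14202 genes of the whole table.

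The study compared vascular smooth muscle cells from wild-type mice and from mice labelled TIGAR KO, untreated or given the growth factor PDGF-BB, which drives smooth muscle cells to divide and migrate. This gave 4 groups of 3 libraries, an untreated and a treated one for each genotype, and treatment was with PDGF-BB at 40 µg/L for 6 h. All groups shared an age of the mice of 4 to 6 weeks, passages 4 to 6 and a medium with fetal bovine serum, itself a known stimulus of the clock in cultured cells. The labels give no knockout allele, vessel, sex of the mice, hour of collection or step that synchronized the clock, and they leave unsaid whether a group's libraries are from different animals or dishes, so the p-values here reflect only the spread between these samples, which may be technical.

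Tigar itself, a p53 target that limits glycolysis, did not have a lower level where the label says knockout. Its level was 6.99, 8.61 and 6.91 CPM (counts scaled to a library sum of 1000000 reads) in wild-type untreated libraries and 10.0, 12.2 and 11.3 CPM in labelled knockout untreated libraries, and with PDGF-BB it was 11.5, 11.5 and 12.6 CPM against 14.6, 14.7 and 16.2 CPM. The groups are therefore called by their label throughout. Library totals ran from 14953807 to 21698488 reads, and at the lowest depth 1 read was worth 0.0669 CPM. Of the smooth muscle markers, Acta2 was at 1133 to 2863 CPM over the 12 libraries, whereas Tagln was at 2.98 to 7.12 CPM and Des at 0.356 to 0.953 CPM. Replicate 1 of wild-type with PDGF-BB stood apart, with a root mean square log2 difference of 0.416 from the other libraries of its group over all tested genes, against 0.143 to 0.293 for the other 11 libraries.

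The mammalian clock is a transcriptional loop in which the product of Arntl (BMAL1) and CLOCK bind E-boxes and switch on the Per, Cry, Nr1d1, Nr1d2, Dbp and Tef genes. PER and CRY proteins then repress that pair, and the REV-ERB receptors encoded by Nr1d1 and Nr1d2 repress Arntl and Nfil3 through ROR response elements, so that Arntl runs roughly opposite in phase to Dbp, Tef and the REV-ERB genes. DBP and TEF activate, and NFIL3 represses, genes with a D-box. Smooth muscle cells of the vessel wall have such a clock, and serum, glucocorticoid and cAMP signals can reset it in culture.

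Promoter sequences are shown for the members whose start regions held the element of the loop that is known to control them. RefSeq windows on GRCm38.p6 of 250 bases before to 50 bases after a start were matched to 9 of the 10 members, and the other, Per2, is named only. The letters searched on both strands were CACGTG for the E-box, CACGTT for its E-prime variant, TTATGTAA or TTACGTAA for the D-box, TGACGTCA for the cAMP response element and TGACG for its shorter form, which lies within the longer one. The RORE was searched as AGGTCA after a stretch rich in A and T. The E-box was found in 7.15% of all 32851 windows and in those of Cry1, Per1 and Tef. The E-prime box was found in 4.68% of windows and in those of Cry1 and Nr1d1, the D-box in 1.06% and in that of Per3, and the RORE in 0.18% and in that of Arntl. The full cAMP response element occurred in 1.79% of windows and in none of these members, and its shorter form in 20.8% and in Cry1, Nfil3 and Per1. The shares count windows, whereas a member with several windows, as Arntl, Per1 and Tef have, is named if any of them held a match. The RORE of Arntl and the E-box of Per1 were not in all windows of these genes. A match describes the letters in a window and does not show binding. Capitals mark the E-box and E-prime box in Cry1 (chr10:85185055-85185304, minus strand) and the E-prime box in Nr1d1 (chr11:98775378-98775627, minus strand). They mark the E-box in Per1 (chr11:69098699-69098948, plus strand) and upstream of a Tef start (chr15:81802423-81802672, plus strand). The stretch upstream of another Tef start (chr15:81811164-81811413, plus strand) also held an E-box and is not printed. Capitals also mark a pair of D-boxes in Per3 (chr4:151044666-151044915, minus strand) and the RORE in Arntl (chr7:113207528-113207557, plus strand), the last being 30 bases just after the start.
Cry1: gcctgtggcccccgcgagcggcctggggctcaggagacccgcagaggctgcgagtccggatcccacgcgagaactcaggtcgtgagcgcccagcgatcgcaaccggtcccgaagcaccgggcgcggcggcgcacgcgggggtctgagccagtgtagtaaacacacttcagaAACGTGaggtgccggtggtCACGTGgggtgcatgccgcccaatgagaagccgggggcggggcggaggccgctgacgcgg
Nr1d1: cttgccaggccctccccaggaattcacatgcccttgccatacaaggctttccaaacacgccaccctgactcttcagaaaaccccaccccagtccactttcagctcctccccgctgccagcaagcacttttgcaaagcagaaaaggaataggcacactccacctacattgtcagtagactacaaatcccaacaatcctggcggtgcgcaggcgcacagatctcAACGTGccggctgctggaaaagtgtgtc
Per1: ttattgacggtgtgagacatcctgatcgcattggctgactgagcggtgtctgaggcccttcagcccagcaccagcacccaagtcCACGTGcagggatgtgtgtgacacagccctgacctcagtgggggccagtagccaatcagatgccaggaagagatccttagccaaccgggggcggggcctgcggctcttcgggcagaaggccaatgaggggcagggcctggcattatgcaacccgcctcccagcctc
Tef: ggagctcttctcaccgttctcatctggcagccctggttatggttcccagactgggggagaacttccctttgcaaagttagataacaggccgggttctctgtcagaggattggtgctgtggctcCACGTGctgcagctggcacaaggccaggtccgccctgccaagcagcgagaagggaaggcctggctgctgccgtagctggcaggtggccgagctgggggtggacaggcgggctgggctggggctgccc
Per3: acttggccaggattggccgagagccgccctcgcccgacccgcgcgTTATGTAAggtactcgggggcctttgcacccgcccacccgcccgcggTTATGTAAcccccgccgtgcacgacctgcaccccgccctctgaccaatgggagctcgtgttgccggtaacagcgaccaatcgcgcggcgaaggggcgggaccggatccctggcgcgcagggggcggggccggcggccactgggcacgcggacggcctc
Arntl: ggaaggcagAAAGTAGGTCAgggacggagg

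Levels were compared between members per kilobase of the exon length given in the deposited table. That length departs unequally from the exon bases in GENCODE annotation. It is 2026 bases in both for Nfil3, but 2721 against 3077 for Nr1d1, 5999 against 9608 for Per3 and 2908 against 7523 for Arntl. The order and ties below therefore hold for the table's length only. In wild-type untreated libraries Tef was the most abundant at 48.9 ± 0.84 CPM per kb (SD, n = 3), followed by Nr1d2 at 29.2 ± 1.23 and Dbp at 26.0 ± 1.66. Nr1d1 at 23.1 ± 0.54 and Per3 at 23.0 ± 0.89 CPM per kb did not differ beyond their spread. Per1 followed at 9.31 and Per2 at 4.84 CPM per kb. The lowest levels per kb were those of Nfil3 at 3.28 and Arntl at 2.58, whose ranges overlapped, and of Cry1 at 1.32. With PDGF-BB the order changed in the wild-type libraries. Tef stayed first at 24.9 CPM per kb, Arntl at 8.52 overlapped with Per3 at 8.56, and Dbp moved from the third place to the seventh at 4.98 CPM per kb. Reads per library were fewest for Cry1, at 56 to 219, and Nfil3, at 99 to 165, so counting error weighs most on these members.

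**Figure D1:**
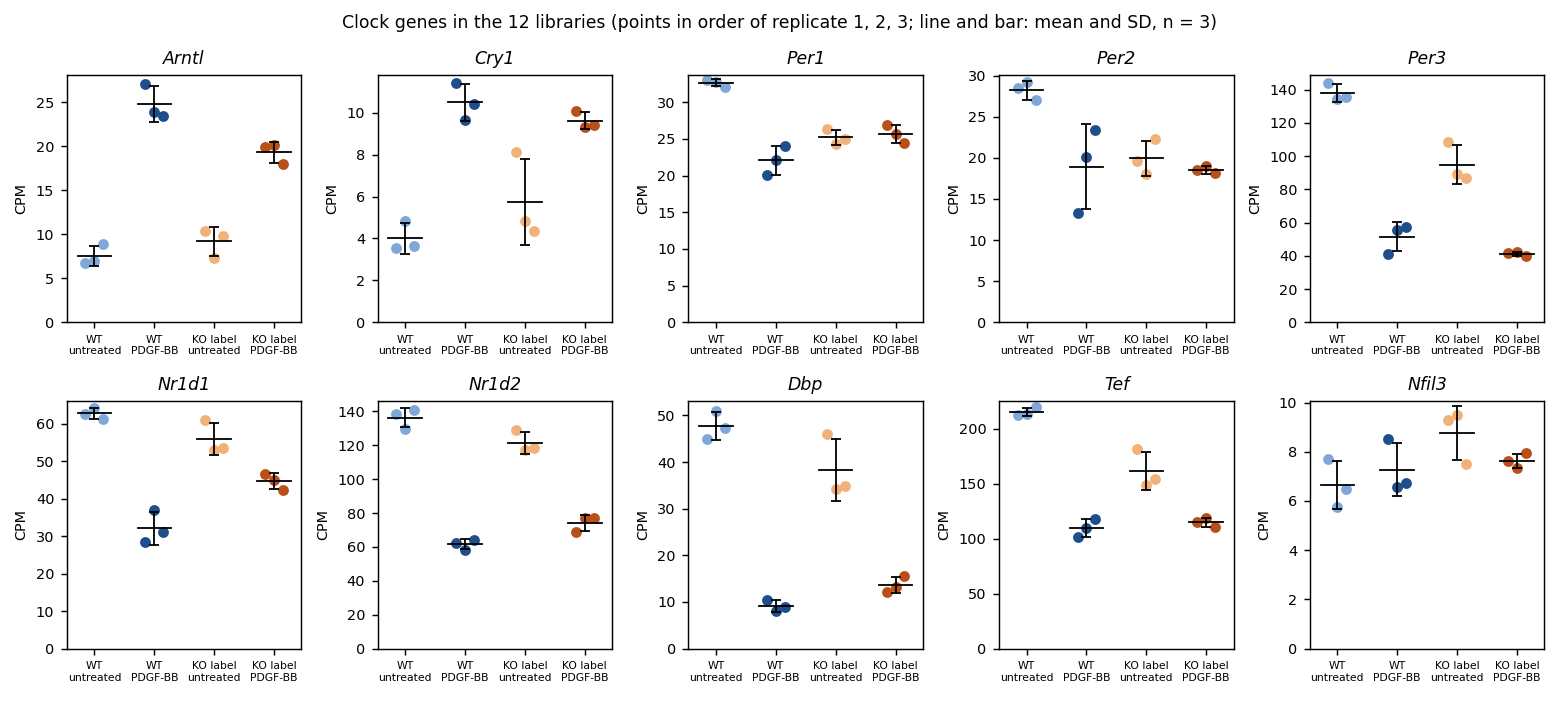
Level of the 10 clock genes in CPM in each of the 12 libraries. Each point is 1 library of the group named below it, and the line and bar are the mean and SD of 3 libraries. Arntl and Cry1 rise with PDGF-BB from 7.51 and 4.00 CPM to 24.8 and 10.5 CPM in wild-type means, while Dbp drops from 47.7 to 9.14 CPM.

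The first comparison asked what PDGF-BB did to clock genes in wild-type cells. Arntl and Cry1 rose, the 3 Per genes, both REV-ERB genes, Dbp and Tef fell, and Nfil3 did not pass the test. By limma-trend over all genes, 25% of the genes tested were called higher and 34.4% lower (59.4% in all) at an adjusted p under 0.05, and 2 members were called higher and 7 lower. The members' median log2 change was -0.77, against -0.08 over all genes. In bulk RNA, fewer cells that express a gene and less RNA per cell cannot be told apart.

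Arntl encodes BMAL1, the partner of CLOCK. It stood at 6.74, 6.92 and 8.88 CPM in wild-type untreated libraries and at 27.1, 23.9 and 23.4 CPM with PDGF-BB. The groups did not overlap, and the rise was 3.04-fold on CPM + 1 (log2 change 1.60, SE 0.13, limma adjusted p = 3.95e-07). In labelled knockout libraries Arntl went from 10.4, 7.29 and 9.84 CPM to 19.9, 20.1 and 17.9 CPM. Again no treated library reached down to an untreated one, and the log2 change was 1.01 (SE 0.13, limma adjusted p = 5.34e-05).

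Cry1, a repressor that peaks late in the cycle, rose, as Arntl did, where the Per genes fell or did not pass. Its wild-type levels were 3.53, 4.84 and 3.63 CPM untreated and 11.4, 9.64 and 10.4 CPM with PDGF-BB, a log2 change of 1.21 (SE 0.17, limma adjusted p = 5.82e-05). In labelled knockout cells the untreated values were 8.11, 4.81 and 4.34 CPM, with replicate 1 well above the other 2, and the treated values were 10.1, 9.34 and 9.43 CPM. The groups still did not overlap, and the log2 change of 0.69 (SE 0.17) passed the test (limma adjusted p = 0.00597).

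The Per genes encode the PER proteins that join CRY in the repressor complex, and the 3 of them differed in size and in the labelled knockout cells. Per3 fell most. Its wild-type levels were 144, 134 and 135 CPM untreated and 41.3, 55.7 and 57.1 CPM with PDGF-BB (log2 change -1.42, SE 0.11, limma adjusted p = 2.97e-07), and its labelled knockout levels went from 108, 89.1 and 87.0 CPM to 41.9, 42.1 and 40.0 CPM (log2 change -1.17, adjusted p = 3.74e-06). Treated and untreated libraries of Per3 were apart in both genotypes, and replicate 1 of wild-type with PDGF-BB was the lowest treated wild-type library.

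Per1, which also answers directly to cAMP and glucocorticoid signals, dropped in wild-type libraries from 33.0, 32.8 and 32.1 CPM to 20.1, 22.1 and 24.0 CPM (log2 change -0.55, SE 0.08, limma adjusted p = 6.25e-05). In labelled knockout libraries it was at 26.4, 24.3 and 25.0 CPM untreated and 26.9, 25.7 and 24.4 CPM with PDGF-BB. Those groups overlapped, and the log2 difference was 0.02 with a 95% interval of -0.15 to 0.20 (limma adjusted p = 0.84). Leaving out replicate 2 of labelled knockout untreated or replicate 1 of labelled knockout with PDGF-BB turned this small value to -0.0015 or -0.011.

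On the log2 scale, Per2 had the widest spread of the members among treated wild-type libraries. It was at 28.5, 29.2 and 26.99 CPM untreated and at 13.3, 20.1 and 23.4 CPM with PDGF-BB (log2 change -0.59, SE 0.15, limma adjusted p = 0.00475). The low value of 13.3 CPM came from replicate 1, the library that stood apart, and the drop was -0.36 without it (limma adjusted p = 0.0185). In labelled knockout libraries Per2 was at 19.6, 18.1 and 22.2 CPM untreated and at 18.5, 19.0 and 18.1 CPM with PDGF-BB, overlapping groups with a log2 difference of -0.10 and a 95% interval of -0.42 to 0.23 (limma adjusted p = 0.642).

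The REV-ERB receptor genes fell in both genotypes. Nr1d2 went from 138, 130 and 141 CPM to 62.2, 58.2 and 64.2 CPM in wild-type libraries (log2 change -1.13, SE 0.07, limma adjusted p = 3.05e-08) and from 129, 117 and 118 CPM to 68.6, 77.0 and 76.9 CPM in labelled knockout libraries (log2 change -0.71, adjusted p = 5.17e-06). Nr1d1 went from 62.7, 64.3 and 61.3 CPM to 28.3, 36.9 and 31.0 CPM in wild-type libraries (log2 change -0.96, SE 0.09, limma adjusted p = 1.6e-06). In labelled knockout libraries it went from 60.9, 53.1 and 53.6 CPM to 46.6, 45.0 and 42.4 CPM. No treated library overlapped an untreated one for either gene, but this last change was the smallest that passed (log2 change -0.31, SE 0.09, limma adjusted p = 0.0144). It did not pass without replicate 1 of labelled knockout untreated (log2 change -0.25, adjusted p = 0.0678) or without replicate 3 of labelled knockout with PDGF-BB (log2 change -0.28, adjusted p = 0.0632).

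Of the D-box factors, Dbp, a PAR bZIP activator and a widely used readout of clock output, had the largest fall among the members. Wild-type levels were 44.9, 51.0 and 47.3 CPM untreated and 10.5, 7.98 and 8.95 CPM with PDGF-BB. The treated level on CPM + 1 was 0.207 of the untreated one (log2 change -2.27, SE 0.13, limma adjusted p = 1.47e-08). Labelled knockout levels were 46.0, 34.2 and 34.8 CPM untreated and 12.2, 13.3 and 15.5 CPM with PDGF-BB (log2 change -1.42, SE 0.13, adjusted p = 2.36e-06). All treated libraries lay far below all untreated ones, and the untreated labelled knockout libraries split into replicate 1 at the wild-type level and the other 2 below it.

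Tef, a second PAR bZIP activator, fell from 212, 214 and 219 CPM to 102, 110 and 118 CPM in wild-type libraries (log2 change -0.97, SE 0.08, limma adjusted p = 3.86e-07). In labelled knockout libraries it fell from 181, 148 and 155 CPM to 115, 119 and 110 CPM (log2 change -0.48, SE 0.08, limma adjusted p = 0.00031). The treated levels of the 2 genotypes overlapped, whereas the untreated ones did not. Nfil3, the repressor of D-box genes, was at 7.69, 5.75 and 6.49 CPM untreated and 8.50, 6.58 and 6.74 CPM with PDGF-BB in wild-type libraries, and at 9.29, 9.50 and 7.51 CPM and 7.60, 7.34 and 7.93 CPM in labelled knockout libraries. Its groups overlapped within each genotype, with log2 differences of 0.11 (95% interval -0.17 to 0.39) and -0.17 (95% interval -0.45 to 0.11) and limma adjusted p values of 0.465 and 0.306.

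In the labelled knockout cells as a whole, 2 members were called higher with PDGF-BB and 5 lower by limma-trend, where 17.6% of all genes were called higher and 24.8% lower (42.4% in all). The median log2 change of the members was -0.24, against -0.07 over all genes. Beside these changes, the summed level of 4 proliferation markers was 112 to 172 CPM in wild-type untreated and 68.2 to 70.4 CPM in wild-type treated libraries, and 37.0 to 68.1 CPM and 50.05 to 51.5 CPM in the labelled knockout ones. The summed level of 8 smooth muscle markers, most of it Acta2, was 1808 to 2294 CPM untreated and 1470 to 1959 CPM treated in wild-type and 2259 to 3466 and 3146 to 3229 CPM in labelled knockout libraries. Single smooth muscle markers did change in wild-type cells, where Myh11 (-0.99), Myocd (-0.95) and Lmod1 (-0.83) were called lower and Smtn (0.35) higher by limma-trend, and in labelled knockout cells Myh11 (-0.54) was called lower and Cnn1 (0.57) and Smtn (0.33) higher. The part of these markers in the clock gene changes was not tested.

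Parts of some members lie under exons of a gene on the opposite strand in GENCODE annotation, and the strand setting of the counting is not given in the sources used here. For Dbp (chr7:45705088-45710203, plus strand) 18% of exon bases overlap Sphk2, for Nr1d1 (chr11:98767932-98775333, minus strand) 8.55% overlap Thra, and for Tef and Arntl the shares are 2.45% and 0.439%. Without strand, reads there cannot be told apart. Sphk2 was at 22.6, 26.4 and 19.96 CPM in wild-type untreated and 31.2, 28.4 and 29.7 CPM in treated libraries, opposite in direction to Dbp. Thra was at 131, 135 and 127 CPM untreated and 99.7, 106 and 103 CPM treated, the same direction as Nr1d1. The other 6 members have no exon bases under another gene on either strand.

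**Figure D2:**
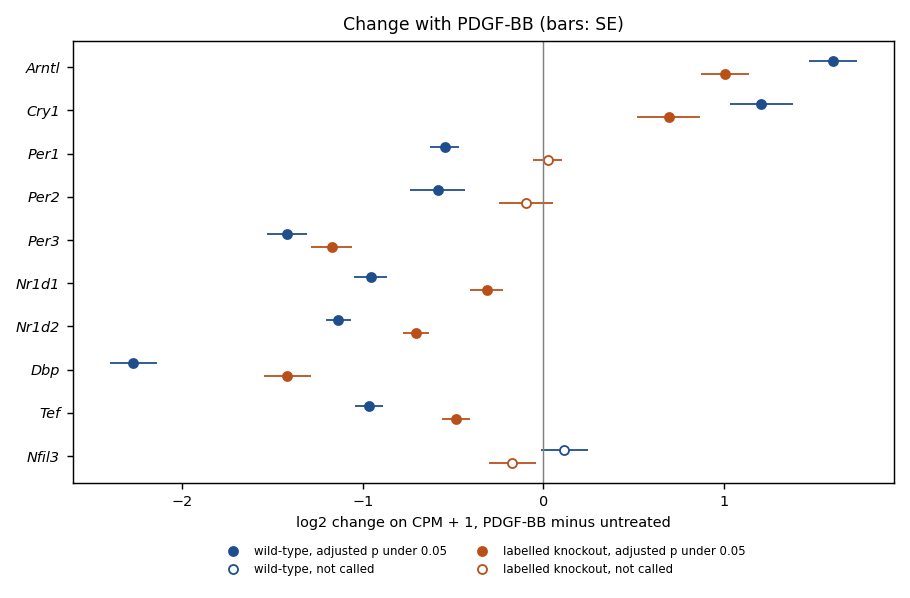
Log2 change of each clock gene with PDGF-BB on CPM + 1, in wild-type (blue) and labelled knockout (orange) cells. Points are estimates from limma-trend and bars the SE; filled points have an adjusted p under 0.05. All members except Nfil3 lie farther from 0 in wild-type cells, with Dbp at -2.27 and -1.42 and Arntl at 1.60 and 1.01.

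The second question was whether the response differed between the genotype labels. The interaction, which subtracts the log2 change in wild-type from that in labelled knockout libraries, was called for 5 members, all positive, where 2.25% of all genes were called higher and 1.68% lower (3.92% in all) by limma-trend. Because these 5 genes fell in wild-type cells, a positive value is a smaller fall, or for Per1 none that passed. The median over the members was 0.46, against 0.0054 over all genes. Of the genes called higher or lower in the interaction 57.3% were higher, and 46.7% were higher under TMM scaling.

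Dbp had the largest difference, 0.85 (SE 0.18, limma adjusted p = 0.0205), with a log2 response of -2.27 in wild-type and -1.42 in labelled knockout cells. Nr1d1 followed at 0.64 (SE 0.13, adjusted p = 0.0149) and kept 32.9% of the wild-type log2 response. Per1 differed by 0.57 (SE 0.11, limma adjusted p = 0.0128). Its wild-type fall had no counterpart beyond the spread in labelled knockout libraries. Tef differed by 0.48 (SE 0.11, adjusted p = 0.0297), keeping 50.1% of the wild-type response, and Nr1d2 by 0.43 (SE 0.10, adjusted p = 0.0291), keeping 62.1%.

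The other 5 members did not pass. For Arntl the difference was -0.60 (95% interval -1.001 to -0.19, limma adjusted p = 0.0972) and for Cry1 -0.51 (95% interval -1.05 to 0.02, limma adjusted p = 0.279). For Per2 it was 0.49 (95% interval 0.03 to 0.95, limma adjusted p = 0.234) and for Per3 0.25 (95% interval -0.10 to 0.59, limma adjusted p = 0.427). These 4 genes kept 62.8%, 57.4%, 16.4% and 82.6% of the wild-type log2 response, so Per3 was the member closest to an equal response. With 1 library left out, the difference ran from 0.27 to 0.65 for Per2 and from 0.10 to 0.35 for Per3. Nfil3 differed by -0.29 (95% interval -0.68 to 0.11, limma adjusted p = 0.422).

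A smaller response in labelled knockout libraries was common in the table. Of 9331 genes called in the mean effect of PDGF-BB over both genotypes, 76.5% had a smaller log2 response in labelled knockout cells, with a median difference of -0.17. The 9 members called there all had a smaller response, with a median difference of -0.51, and this held for the 9 in every one of 25 other settings. The calls of single members were less firm than this direction. Per1 stayed under the threshold in all 24 settings that gave an interaction, with a highest limma adjusted p of 0.0494 among those that left out a library, and Nr1d1 passed in all but the one without replicate 1 of labelled knockout with PDGF-BB (adjusted p = 0.0527). Dbp lost its call in 6, Nr1d2 in 9 and Tef in 11 of the 24 settings, mostly with a single library left out, where their highest adjusted p values were 0.0624, 0.0926 and 0.0928.

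The third comparison set labelled knockout against wild-type cells without PDGF-BB. Per1, Per2, Per3 and Tef were lower in labelled knockout libraries, and no member was called higher. In the limma-trend fit 9.15% of all genes were called higher and 24.8% lower (34% in all), and 0 members were called higher and 4 lower. The members' median was -0.24, against -0.13 over all genes. The scale matters here, since under TMM scaling the median of all genes moved from -0.13 to -0.0069 and the share of called genes that were higher from 27% to 48.7%.

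Per3 was lower by 0.54 on the log2 scale (change -0.54, SE 0.11, limma adjusted p = 0.00231), at 144, 134 and 135 CPM in wild-type and 108, 89.1 and 87.0 CPM in labelled knockout libraries. Tef differed by -0.42 (SE 0.08, adjusted p = 0.00118), Per2 by -0.48 (SE 0.15, adjusted p = 0.0252) and Per1 by -0.36 (SE 0.08, adjusted p = 0.00344). The 2 genotypes did not overlap in any of these 4 genes. Per1 did not pass under TMM scaling (-0.23, adjusted p = 0.0522), quantile scaling (adjusted p = 0.0578) or DESeq2 (adjusted p = 0.061). Per2 did not pass under TMM scaling (-0.35, adjusted p = 0.114), quantile scaling (adjusted p = 0.11), edgeR (adjusted p = 0.107), DESeq2 (adjusted p = 0.116) or without a filter (adjusted p = 0.0535). Nor did Per2 pass without any 1 of the 3 wild-type untreated libraries or replicates 1 or 2 of labelled knockout untreated (limma adjusted p up to 0.1).

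The other 6 members did not pass in the main comparison. Dbp differed by -0.32 (95% interval -0.60 to -0.04, limma adjusted p = 0.0719), Nr1d1 by -0.17 (95% interval -0.37 to 0.03, limma adjusted p = 0.182) and Nr1d2 by -0.17 (95% interval -0.32 to -0.01, limma adjusted p = 0.0863). Arntl differed by 0.25 (95% interval -0.03 to 0.54, limma adjusted p = 0.16), Cry1 by 0.40 (95% interval 0.03 to 0.78, limma adjusted p = 0.0925) and Nfil3 by 0.35 (95% interval 0.07 to 0.64, limma adjusted p = 0.0503). Under TMM scaling Arntl (0.37, adjusted p = 0.0445), Cry1 (0.51, adjusted p = 0.0376) and Nfil3 (0.47, adjusted p = 0.0133) were called higher, so that 3 members were called higher and 2 lower there. On the log2 scale, replicate 1 of labelled knockout untreated lay above the mean of the other 2 libraries of its group by 0.71 in Cry1, 0.41 in Dbp, 0.30 in Per3 and 0.26 in Tef. With replicate 1 of treated wild-type cells left out, which enters this comparison only through the shared spread, 7 members were called lower and 2 higher.

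With PDGF-BB the genotype difference took another shape. Dbp, Nr1d1 and Nr1d2 were higher in labelled knockout than in wild-type libraries, and no member was called lower. By limma-trend 10.6% of all genes were called higher and 26.6% lower (37.2% in all), and 3 members were called higher and 0 lower. The members' median was 0.07, against -0.14 over all genes, and of all called genes 28.5% were higher, or 47.4% under TMM scaling.

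Dbp was at 10.5, 7.98 and 8.95 CPM in wild-type and 12.2, 13.3 and 15.5 CPM in labelled knockout libraries with PDGF-BB, a difference of 0.53 (SE 0.13, limma adjusted p = 0.00639). Nr1d1 was at 28.3, 36.9 and 31.0 CPM against 46.6, 45.0 and 42.4 CPM, a difference of 0.47 (SE 0.09, adjusted p = 0.00151). Nr1d2 was at 62.2, 58.2 and 64.2 CPM against 68.6, 77.0 and 76.9 CPM, a difference of 0.26 (SE 0.07, adjusted p = 0.0106). Labelled knockout libraries were the higher ones for all 3 genes without overlap. The call of Nr1d2 was lost when only the groups compared entered the fit (adjusted p = 0.054).

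Arntl differed by -0.34 (95% interval -0.63 to -0.06, limma adjusted p = 0.0557), Per1 by 0.21 (95% interval 0.04 to 0.38, limma adjusted p = 0.053) and Per3 by -0.29 (95% interval -0.54 to -0.05, limma adjusted p = 0.0568), none of which passed. Per1 was called higher in 8 of 25 other settings, at 0.32 under TMM scaling (adjusted p = 0.011), 0.35 under quantile scaling (adjusted p = 0.00823), 0.33 with edgeR (adjusted p = 0.0103) and 0.35 with DESeq2 (adjusted p = 0.00202). Arntl and Per3 were each called lower in 5 of 25. The intervals of Cry1, Tef and Nfil3 included 0, with differences of -0.11, 0.06 and 0.07 and limma adjusted p values of 0.638, 0.548 and 0.708. Per2 differed by 0.0062 (95% interval -0.32 to 0.33, limma adjusted p = 0.978). With replicate 1 of treated wild-type cells left out, Per2 turned to -0.22 (adjusted p = 0.0673) and Per3 passed at -0.44 (adjusted p = 0.000115).

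**Figure D3:**
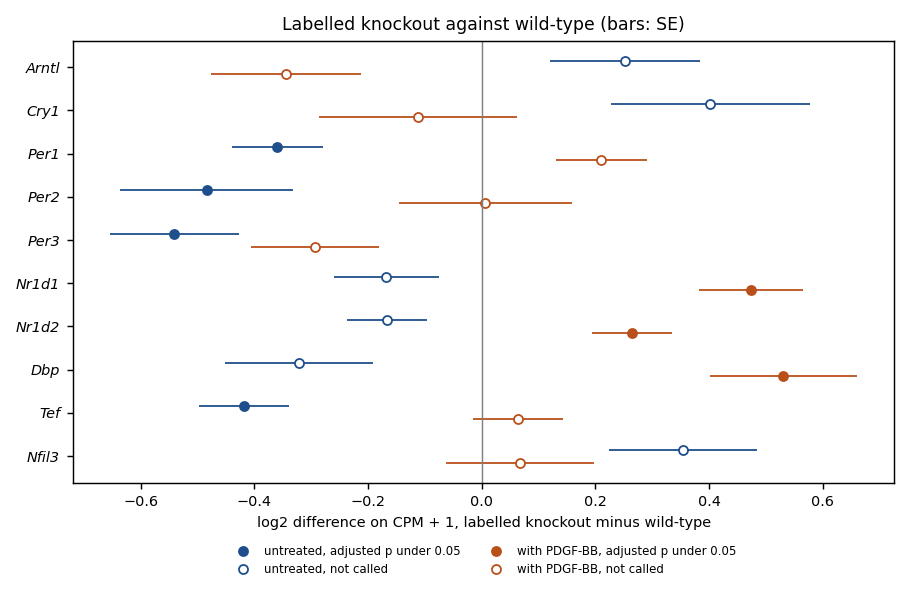
Log2 difference between labelled knockout and wild-type libraries for each clock gene on CPM + 1, untreated (blue) and with PDGF-BB (orange). Points are limma-trend estimates and bars the SE; filled points have an adjusted p under 0.05. Per1, Per2, Per3 and Tef lie below 0 untreated, from -0.36 to -0.54, and Dbp, Nr1d1 and Nr1d2 lie above 0 with PDGF-BB, from 0.26 to 0.53.

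Markers of other cell types moved with the genotype label. The summed level of 6 endothelial markers was 79.1 to 88.9 CPM in wild-type untreated and 536 to 605 CPM in labelled knockout untreated libraries, and 65.1 to 70.9 against 505 to 522 CPM with PDGF-BB, with all 6 called higher in both comparisons. Pecam1 was at 29.0 to 39.5 CPM in wild-type and 237 to 264 CPM in labelled knockout libraries. The summed level of 6 macrophage markers was 126 to 135 CPM in wild-type untreated and 29.2 to 35.6 CPM in labelled knockout untreated libraries, and 97.1 to 132 against 29.2 to 32.7 CPM with PDGF-BB. The 6 fibroblast markers summed to 188 to 200 CPM in wild-type and 138 to 186 CPM in labelled knockout libraries untreated, and to 163 to 169 against 94.9 to 97.6 CPM with PDGF-BB. Most of this sum was Pdgfra and Cd34, and the set did not move together. Of 5 tested, 1 was called higher and 1 lower untreated, and 1 higher and 2 lower with PDGF-BB, beside 34% and 37.2% of all genes called. Untreated means of Pi16 were 0.963 CPM in wild-type and 1.93 CPM in labelled knockout libraries. The 4 Schwann cell markers summed to 42.3 to 50.3 against 15.2 to 16.9 CPM untreated and to 34.8 to 55.3 against 12.01 to 13.2 CPM with PDGF-BB, with Sox10 at 0 in all libraries. The 4 adipocyte markers summed to 2.06 to 5.47 CPM in wild-type and 5.37 to 8.43 CPM in labelled knockout libraries, with Lep at 0 in all. Nearly all of this sum was Fabp4, since Adipoq and Plin1 did not exceed 0.189 and 0.126 CPM in any library. The part of these markers in the genotype differences of the clock genes was not tested.

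Other genes of the clock were taken from a list of 37, of which 35 passed the filter and Hlf and Rorb did not. With PDGF-BB 6 were called higher and 16 lower in wild-type cells, and 5 higher and 12 lower in labelled knockout cells, where 59.4% and 42.4% of all genes were called in either direction, so these shares lie near the background. Their median log2 changes were -0.28 and -0.18, against -0.08 and -0.07 over all genes. Bhlhe40, a repressor that acts at E-boxes, had the largest rise, at 11.4, 9.88 and 10.5 CPM in wild-type untreated and 75.8, 65.6 and 60.1 CPM in treated libraries (log2 change 2.55, limma adjusted p = 2.32e-09). In labelled knockout cells it went from 16.0, 13.2 and 11.5 CPM to 49.1, 46.3 and 45.5 CPM (log2 change 1.73, adjusted p = 1.62e-07). The interaction of Bhlhe40 was -0.82 (SE 0.16, limma adjusted p = 0.0124), and it was the only gene of the 35 called there. Its relative Bhlhe41 went the other way, with changes of -0.74 in wild-type and -0.28 in labelled knockout cells (limma adjusted p = 2.13e-05 and 0.0299). The labelled knockout call of Bhlhe41 did not hold in 9 of 25 other settings, with adjusted p values up to 0.234.

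The output genes Noct, the nocturnin gene, whose product removes phosphate from NADP coenzymes, and Klf10, a Krüppel-like factor, also rose. Noct changed by 1.98 and 1.77 and Klf10 by 1.34 and 1.04 in wild-type and labelled knockout cells, with limma adjusted p values between 9.85e-09 and 3.31e-06. Klf15, a Krüppel-like factor with strong rhythms in heart and muscle, fell from 18.7, 21.1 and 23.3 CPM to 3.70, 2.53 and 4.41 CPM in wild-type cells (log2 change -2.29, limma adjusted p = 6.45e-08) and by 1.77 on the log2 scale in labelled knockout cells. The mitosis kinase gene Wee1 fell by 0.91 in wild-type and 0.79 in labelled knockout cells (limma adjusted p = 5.36e-06 and 4.03e-05).

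In the positive limb, Clock, the partner of Arntl, was at 81.8, 77.6 and 79.5 CPM in wild-type untreated and 64.4, 100.4 and 104 CPM in treated libraries, where replicate 1 lay apart. Its log2 differences were 0.14 (95% interval -0.15 to 0.42) in wild-type and 0.23 (95% interval -0.06 to 0.51) in labelled knockout cells, and neither passed the limma test (adjusted p = 0.391 and 0.188). With replicate 1 of treated wild-type cells left out, Clock passed at 0.36 (adjusted p = 6.21e-06) in wild-type cells and at 0.23 (adjusted p = 0.000284) in labelled knockout cells, and the labelled knockout value passed in 5 of 25 other settings. Its paralog Npas2 fell by 0.49 in wild-type cells (limma adjusted p = 0.0269), a call that did not hold in 8 of 24 other settings, and its labelled knockout value was -0.33 (adjusted p = 0.141). Npas2 was near the floor, with 8 to 35 reads per library and wild-type means of 1.28 CPM untreated and 0.634 CPM treated. Its wild-type change ran from -0.96 to -0.20 over those settings. Rora, a receptor gene whose product activates Arntl at the elements that REV-ERB occupies, fell in both genotypes, by 0.77 in wild-type and 0.89 in labelled knockout cells (limma adjusted p = 0.00147 and 0.000909). Its treated wild-type libraries were at 18.8, 30.2 and 35.2 CPM, with replicate 1 the lowest. The wild-type change of Rora passed in all 25 other settings but ran from -0.95 to -0.38, and from -0.95 to -0.52 with 1 library left out. Cry2 did not pass in either genotype, at -0.06 and 0.05 (95% intervals -0.22 to 0.11 and -0.12 to 0.21, limma adjusted p = 0.541 and 0.666), and the sign of the wild-type value changed under 7 settings, TMM scaling among them. Fbxl21, a ubiquitin ligase gene for CRY proteins, fell by 0.86 in labelled knockout cells (limma adjusted p = 0.00087) and was at -0.32 in wild-type cells (adjusted p = 0.0993).

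Between genotype labels, 3 of these 35 genes were called higher and 7 lower untreated, and 3 higher and 11 lower with PDGF-BB, shares near the 34% and 37.2% of all genes called there. Cry2 was lower in labelled knockout libraries in both, by 0.49 untreated (change -0.49, limma adjusted p = 0.000289) and 0.38 with PDGF-BB (change -0.38, adjusted p = 0.00184). Cry1 passed in neither, at 0.40 and -0.11 (limma adjusted p = 0.0925 and 0.638), and a difference between the 2 cryptochrome genes was not tested. Noct was higher, at 0.83 untreated (adjusted p = 5.9e-05) and 0.62 with PDGF-BB (adjusted p = 0.000669).

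**Figure D4:**
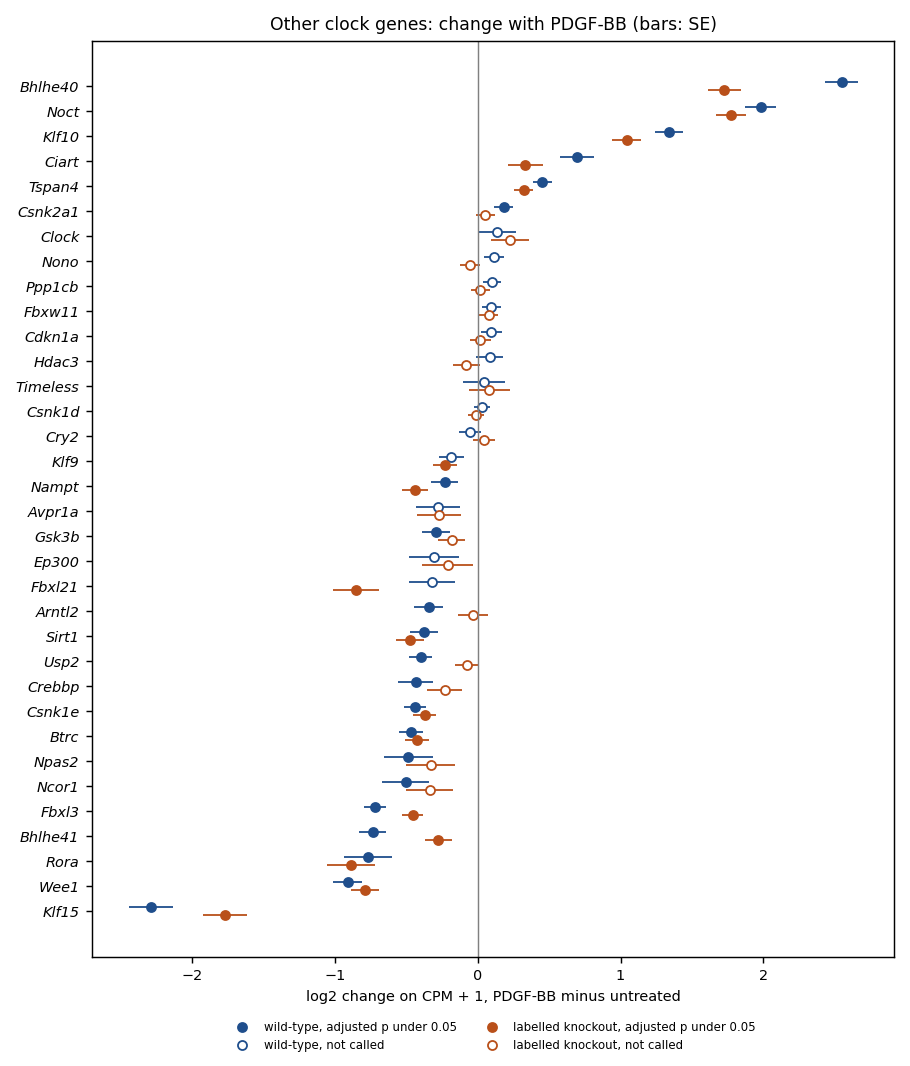
Log2 change with PDGF-BB on CPM + 1 for 34 of the 35 other clock genes that passed the filter, in wild-type (blue) and labelled knockout (orange) cells, ordered by the wild-type change. Bars are the SE and filled points have a limma-trend adjusted p under 0.05. Bhlhe40 is at the top at 2.55 and 1.73 and Klf15 at the bottom at -2.29 and -1.77, and most of the other genes lie between -1 and 1.

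Genes through which serum, cAMP and glucocorticoid signals reach the clock were taken from a list of 19, of which 18 passed the filter and Zbtb16 did not. With PDGF-BB 8 were called higher and 7 lower in wild-type cells, and 6 higher and 4 lower in labelled knockout cells, beside 59.4% and 42.4% of all genes called. The genes named from this list were picked after their values were seen. The early gene Egr1 rose by 1.71 and 1.28 on the log2 scale in wild-type and labelled knockout cells (limma adjusted p = 2.58e-08 and 8.55e-07). Egr3, a related early gene, rose by 1.62 and 0.60, and its interaction of -1.02 passed (limma adjusted p = 0.00353). The early genes Fos and Fosb fell, Fos by 0.45 and 0.66 and Fosb by 1.18 and 0.61 (limma adjusted p = 0.0098 and 0.00126 for Fos, 1.78e-05 and 0.00495 for Fosb). Of the glucocorticoid targets, Sgk1 rose by 1.97 and 2.09 and Fkbp5 by 1.44 and 1.34, whereas Tsc22d3 fell by 0.95 and 0.43, so these targets did not move together. The receptor gene Nr3c1 rose by 0.46 and 0.66.

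The genes whose profile over the 12 libraries was most like that of a member were found by the root mean square difference of log2(CPM + 1) after each gene was centred on its own mean, over all tested genes with a symbol that is not a gene model. Nearest to Dbp were Lmcd1 at 0.126, Fbxo32 at 0.168 and Pdk4 at 0.176. Nearest to Nr1d1 were Samd4 at 0.0822, Hdac5 at 0.0881 and Jarid2 at 0.101. Arntl was followed by Ltv1 at 0.145 and by Por and Rrp8, both at 0.166. Per2 had Lrrk1 at 0.0853, Tsc2 at 0.0876 and Tnrc18 at 0.0878, and Nfil3 had Slc35b3 at 0.114, Ostm1 at 0.12 and Zfx at 0.121. None of the nearest genes was another member, and small values are easier to reach for genes that vary little.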

How the data were processed

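Poly(A) RNA was measured in 12 libraries, 3 in each of 4 groups. The submitters' processing notes list HISAT2, HTSeq and mm10 without versions, and GRCm38.p6 is the assembly per the file headers. The table's name says FPKM, but the deposited values are CPM. Each library summed to 1000000, and 100% of values were whole reads within 0.001 read after scaling by the library total. The exon lengths used for levels per kb are those of the deposited table, and how the authors computed them is not given in the sources used here.

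Genes reaching 1 CPM in 3 or more of the 12 libraries were kept (14202). limma-trend (limma 3.58.1, R 4.3.3) was fitted to log2(CPM + 1) with 1 mean per group over all libraries, with a pseudocount of 1, and 2-sided p-values were adjusted by Benjamini-Hochberg over all kept genes with a threshold of 0.05. Fold changes on CPM + 1 understate the change of low genes. Errors beside log2 changes are SE from that fit, and intervals are 95% intervals of the same fit.

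The members and gene lists were chosen with earlier results of these data known. All 10 members are named. Of the other clock genes, those with the 3 largest called changes in each direction per PDGF-BB comparison are named, and Clock, Npas2, Cry2, Bhlhe40, Bhlhe41 and Rora always. A gene that the rule names is not reported here. Alternatives were pseudocounts of 0.5 and 2, no filter or a mean CPM of at least 5, TMM and quantile scaling, library weights, a fit of only the groups compared, a replicate block, each library left out, and edgeR 4.0.16 (quasi-likelihood) and DESeq2 1.42.0 on recovered reads. edgeR called 8414 and 6030 genes for PDGF-BB in wild-type and labelled knockout cells, 3936 and 4142 for the genotype label untreated and with PDGF-BB, and 496 for the interaction. The procedure was tested on simulated data. Plots used matplotlib 3.10.9 (Python 3.11.15).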

Additional observations from a re-analysis of the deposited data

Results flagged for a closer look

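The response to PDGF-BB differed between the genotype labels, by the interaction term of limma-trend, for Dbp (0.85), Nr1d1 (0.64), Per1 (0.57), Tef (0.48) and Nr1d2 (0.43). All 5 are positive, which is a smaller fall in labelled knockout libraries or, for Per1, no fall that passed. The repressor gene Bhlhe40 (-0.82) and the early gene Egr3 (-1.02) differed in the other direction, and both rose less in labelled knockout libraries. Each of the 7 had an adjusted p under 0.05 over all genes. The calls of Dbp, Nr1d2, Tef and Nr1d1 did not hold in some settings that left out a library, as given above.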

How the results depend on the processing

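Under 25 other settings, the 9 members called with PDGF-BB in wild-type cells kept their direction and call in all. In labelled knockout cells Arntl, Cry1, Per3, Nr1d2, Dbp and Tef did so too. The genotype comparisons were less stable. Untreated, members called higher were 1 with a pseudocount of 2, a mean CPM of at least 5, only the groups compared, library weights or the replicate block, and 3 under TMM, quantile, edgeR or DESeq2. Members called lower were 2 under TMM, quantile or DESeq2 and 7 with only the groups compared or library weights. With PDGF-BB, members called lower were 1 with a pseudocount of 2 or only the groups compared and 2 with library weights, and all genes called were 3438 with only the groups compared. Over all genes, library weights called 7666 untreated and 2814 in the interaction. The interaction count was 371 without a filter (3 members higher) and 905 with DESeq2. It held 1 member lower with library weights or DESeq2. With 1 library left out, members called ranged from 0 to 2 higher and 3 to 7 lower untreated, from 0 to 1 lower with PDGF-BB, and from 2 to 5 higher and 0 to 1 lower in the interaction. The genes called ranged from 3662 to 7098 untreated, 3901 to 6192 with PDGF-BB and 272 to 1548 in the interaction. The cause of these shifts was not tested.

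Small values changed sign. Cry1 between genotypes with PDGF-BB was 0.017 under quantile scaling and 0.0087 with DESeq2, Nfil3 with PDGF-BB in wild-type cells was -0.0098 with library weights, and Per2 between genotypes with PDGF-BB was -0.14 with library weights and -0.22 to 0.17 with 1 library left out. Per1 with PDGF-BB in labelled knockout cells ran from -0.011 to 0.058 with 1 library left out. Cry2 with PDGF-BB in wild-type cells was 0.023 under TMM, 0.046 with library weights, 0.028 with edgeR and 0.0095 with DESeq2, and -0.12 to 0.023 with 1 library left out.

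An exon length trend removed and both replicate 1 of wild-type with PDGF-BB and replicate 1 of labelled knockout untreated left out were added after seeing the data. The first gave 3 members higher untreated, 1 lower with PDGF-BB, 1125 interaction genes with 1 member lower, Cry1 at 0.026 and Cry2 at 0.047. The share of interaction genes called higher was 41.4% there. The second gave 1 member higher and 7 lower untreated (7500 genes), 2 lower with PDGF-BB, 2257 interaction genes, Per2 at -0.22 (adjusted p = 0.0496) and Cry2 at 0.023. The RORE of Arntl was in 0 members when only the bases before the start were searched.

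The labels do not say whether equal replicate numbers mark paired samples. Over 18 same-number pairs the correlation of deviations from group means ran from -0.23 to 0.18, with 3 over 0.1, and other pairs ran from -0.34 to 0.35. Deviations within a group of 3 libraries are tied to each other, so these values cannot settle whether the numbers pair samples. A replicate block left 3 members higher in the interaction, since Nr1d2 (adjusted p = 0.0554) and Tef (adjusted p = 0.0674) did not pass, and called Nfil3 higher untreated (0.35, adjusted p = 0.0464).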
